A study of Mus musculus with 2 samples.

Results

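The nuclear genes of oxidative phosphorylation were followed in single erythroid progenitor cells of the mouse fetal liver. They were taken by symbol: names that begin with Nduf, Uqcr, Atp5, Cox4, Cox5, Cox6, Cox7 or Cox8, and Sdha, Sdhb, Sdhc, Sdhd, Cyc1 and Cycs. This gave 93 of the 17608 genes in the deposited table. By role, 37 belonged to complex I, 4 to complex II, 9 to complex III, 17 to complex IV and 17 to complex V (ATP synthase). Cycs is cytochrome c itself, and the other 8 were assembly factors of complex I. Ndufa4 and Ndufa4l2 were counted with complex IV, where Ndufa4 is now placed in spite of its name.

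The respiratory chain sits in the inner mitochondrial membrane. Complexes I and II take electrons from NADH and succinate, complex III passes them through cytochrome c to complex IV, and complex IV hands them to oxygen. Complexes I, III and IV pump protons, and complex V lets the protons flow back to make ATP. Most subunits are made from nuclear genes and imported, whereas a small set, including the core pumping subunits, is made inside the mitochondrion from its own genome. Red cell progenitors use mitochondria for ATP and for heme, and lose them when they mature.

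All cells came from the fetal liver of C57BL/6 embryos at stage E14.5 (days of gestation). The sources used here describe them as low in the surface proteins CD71 and CD24, and the series design also speaks of lineage depletion. Whether this description holds for every pool was not examined. The late erythroid marker RNAs used below include Tfrc (the gene of CD71) and Cd24a, and their sum differed between pools. A hashed library, in which antibody-linked barcodes mark the source of each cell, held the pools FACS BFU-E (233 cells), FACS CFU-E (167 cells), PE-low (208 cells) and PE-high (294 cells). BFU-E is the earlier and CFU-E the later colony-forming erythroid progenitor, FACS is fluorescence-activated cell sorting, and the PE fractions were read as those of the magnet method that the labels name beside it. A second library (CITE-seq, with barcoded antibodies against CD117 and CD71) held cells named CS BFUE (122 cells) or CS CFUE (195 cells) and 2136 cells with no pool name. The meaning of PE and CS, and the way cells received their names, were not given in the sources used here. A 10-day culture with the glucocorticoid dexamethasone (100 uM) or methanol is part of the labels, which do not say whether the sequenced cells went through it. No embryo, litter or replicate is named, so every pool was 1 sample and the differences below lack replicates.

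Cells carried unique molecular identifiers (UMIs), each of which counts 1 RNA molecule at its 3' end, so levels were not scaled for gene length. The ratio between the libraries differed by gene, as given below, so a comparison of levels between genes depends on the library. The 6 named pools held between 2968491 and 11003022 UMIs, and the median per cell lay between 23449 in CS BFUE and 38663.5 in PE-high. The UMIs of all cells in a pool were added up per gene and expressed per 1000000 (CPM). Such a sum cannot tell fewer cells of a type from less RNA per cell. FACS BFU-E, PE-low and CS BFUE are called the earlier pools and the others the later pools: 8 early erythroid markers summed to between 903 and 976 CPM in the former and between 225 and 319 in the latter, and 12 late erythroid markers to between 542 and 816 and between 2033 and 2664. Granulocyte markers, by contrast, were not evenly spread. The 8 of them summed to 1354, 739 and 648 CPM in FACS BFU-E, PE-low and CS BFUE, and to 8.02, 190 and 17.8 in FACS CFU-E, PE-high and CS CFUE, with Elane, Ms4a3, Cebpe and Fcnb at 0 in FACS CFU-E. The 11 monocyte markers gave 236, 375 and 142 CPM in the earlier pools and 4.01, 77.2 and 8.20 in the later ones. Cells with at least 10 such myeloid UMIs per 10000 numbered 70 of 233 in FACS BFU-E, 47 of 208 in PE-low and 30 of 122 in CS BFUE. In the later pools they numbered 0 of 167 in FACS CFU-E, 19 of 294 in PE-high and 2 of 195 in CS CFUE. Stage counts of members by direction, and several genes whose ratio moved, are given both with and without these cells.

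Among the genes whose balance differed between earlier and later pools were those for interchangeable subunits, which allow a direct comparison because their products fill the same place. Atp5g1, Atp5g2 and Atp5g3 encode the same mature c subunit of the ATP synthase rotor behind different import signals, and Cox6b1 and Cox6b2 encode the widely expressed form and a testis form of a complex IV subunit. The 250 bases before a transcript start of each are shown because Atp5g2 was higher in the earlier pools and the others in the later pools, Cox6b2 by more than Cox6b1 (RefSeq, 1 start per gene, build GRCm38.p6, all on the minus strand of the chromosome and printed 5′ to 3′ in the direction of transcription). They lie at chr11:96075632-96075881, chr15:102671048-102671297, chr2:73911327-73911576, chr7:30626115-30626364 and chr7:4753095-4753344, in that order. The Atp5g3 stretch lies inside the annotated gene (chr2:73908447-73912464), and the Atp5g1 stretch overlaps the 5′ end of its gene, so other starts lie upstream of the ones used. Capitals mark the letters TGCGCA, the core site of the factor NRF1, or CCGGAAG, the core bound by GABP and other ETS factors, which appears as CTTCCGG where it lies on the other strand.
Atp5g1: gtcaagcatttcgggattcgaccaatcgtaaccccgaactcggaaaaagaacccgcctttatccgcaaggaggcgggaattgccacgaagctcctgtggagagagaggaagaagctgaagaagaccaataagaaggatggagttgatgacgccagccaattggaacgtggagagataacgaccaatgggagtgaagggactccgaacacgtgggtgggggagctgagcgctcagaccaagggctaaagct
Atp5g2: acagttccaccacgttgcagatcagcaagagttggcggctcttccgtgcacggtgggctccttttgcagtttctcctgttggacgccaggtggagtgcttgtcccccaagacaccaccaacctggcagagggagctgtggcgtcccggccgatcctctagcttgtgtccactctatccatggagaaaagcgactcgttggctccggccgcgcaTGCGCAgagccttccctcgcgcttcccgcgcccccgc
Atp5g3: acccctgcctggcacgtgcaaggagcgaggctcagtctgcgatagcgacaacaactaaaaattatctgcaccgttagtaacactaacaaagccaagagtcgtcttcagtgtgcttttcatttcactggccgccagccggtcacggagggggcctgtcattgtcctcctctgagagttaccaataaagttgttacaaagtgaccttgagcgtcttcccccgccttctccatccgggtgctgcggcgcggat
Cox6b1: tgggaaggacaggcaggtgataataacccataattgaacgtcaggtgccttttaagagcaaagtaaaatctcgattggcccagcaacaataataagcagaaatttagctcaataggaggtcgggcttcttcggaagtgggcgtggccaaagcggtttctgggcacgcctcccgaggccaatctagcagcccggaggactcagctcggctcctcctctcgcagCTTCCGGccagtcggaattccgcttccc
Cox6b2: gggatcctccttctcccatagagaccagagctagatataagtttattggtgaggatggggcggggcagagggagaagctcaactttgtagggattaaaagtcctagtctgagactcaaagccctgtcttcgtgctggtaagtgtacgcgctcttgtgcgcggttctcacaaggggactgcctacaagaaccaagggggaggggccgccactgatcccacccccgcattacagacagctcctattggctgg
Atp5g2 alone of the 5 held TGCGCA in this stretch, 37 bases before the start, and Cox6b1 held the GABP core 28 bases before it. The other three held neither. GC content was 62.8% in the Atp5g2 stretch and between 53.6% and 54.8% in the other four, and Cox6b2 had 8 CpG pairs against 14 to 19.

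The same letters were counted in the promoters of all members that the RefSeq table held, 73 of 93. A promoter here runs from 250 bases before to 50 bases after a start, and both strands were searched (TGCGCA reads the same on both). TGCGCA was found for 25.4% of the 71 members that entered the comparisons below, beside 19.9% of the 4347 compared genes with a promoter and 8.79% of all 27025 genes in the table. Complex I genes had it in 10 of 32 cases, among them Ndufa5 and Ndufb10. CCGGAAG was found for 25.4% of these members and 27.3% of the compared genes (9.93% of all), and AAGATGG, the core of YY1, for 15.5% and 10.8% (7.28% of all). A match describes letters in a window and not a bound site. Atp5a1, Cox4i1, Cox4i2, Cox6c, Cyc1, Ndufa4l2, Ndufb9, Ndufs1, Sdhc, Uqcrb, Uqcrc2 and Uqcrq were among the members that the RefSeq promoter table did not hold, so they were not searched.

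The members together took 3.15% of all UMIs in FACS BFU-E (95% exact binomial interval 3.14 to 3.16), 3.23% in FACS CFU-E (3.21 to 3.24), 3.18% in PE-low (3.16 to 3.19) and 3.16% in PE-high (3.15 to 3.17). In the CITE-seq library they took 3.67% in CS BFUE (3.65 to 3.69), 3.91% in CS CFUE (3.90 to 3.93) and 3.95% in the cells with no pool name. The 4 hashed pools thus lay close together, and all CITE-seq groups lay above them. Here and below, intervals cover counting error only. Per cell, the median share lay between 3.11% and 3.20% in the hashed pools, with an SD over cells between 0.26 and 0.32. The CS pools had medians of 3.72% and 3.92%, with SDs of 0.44 and 0.35. Complex V held the most UMIs in every named pool, between 0.998% and 1.14%, followed by complex I at 0.890% to 1.12%, complex IV at 0.733% to 1.04% and complex III at 0.329% to 0.485%. The 4 genes of complex II shared between 0.0628% and 0.0886%, and Cycs alone held between 0.0133% and 0.0159%.

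**Figure D1:**
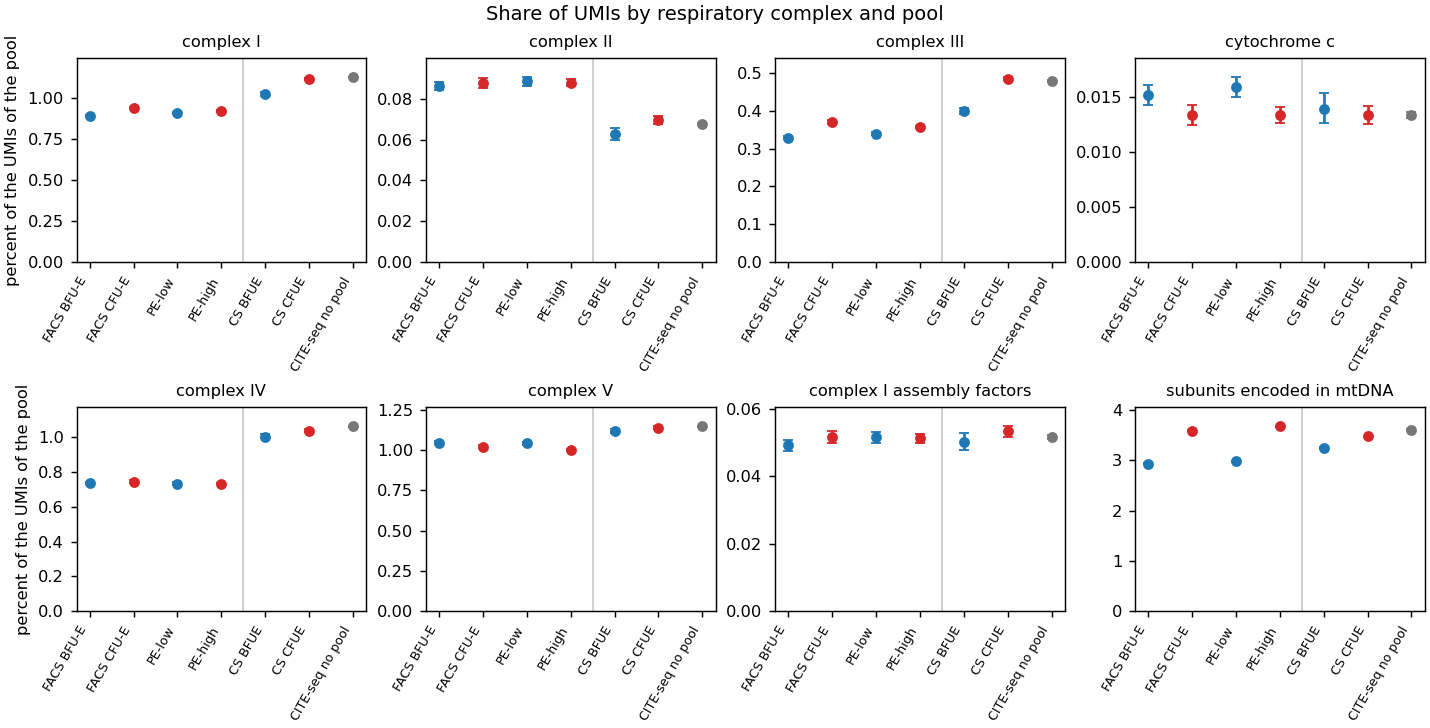
Percent of the UMIs of a pool taken by the genes of each complex, with a panel per complex, the 6 named pools and the unnamed CITE-seq cells on the x axis, and bars for 95% exact binomial intervals (counting error only). Blue points are earlier pools, red points later pools, and the line separates the 2 libraries: complex III was higher in the later pool of each pair (0.370% against 0.329% in the FACS pair), whereas complex V was higher in the earlier pool of both hashed pairs (1.05% against 1.02% in the FACS pair).

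Few members differed much between stages. For ratios, a gene had to average at least 20 CPM over the 6 named pools, which 87 members passed; Cox4i2, Cox6a2, Cox7a1, Ndufa4l2, Atp5s and Ndufaf5 did not. None of the 87 differed by 1.5-fold or more between FACS BFU-E and FACS CFU-E, where 18.6% of all genes compared did. The count was also 0 between PE-low and PE-high (13.1% of all genes) and between CS BFUE and CS CFUE (19.6% of all genes). Abundant genes differed less in general: of the 801 genes with a mean of at least 200 CPM, 9.99%, 7.87% and 10.2% were past 1.5-fold in these pairs, and 0 of the 60 members among them were. Log2 ratios of members, earlier over later pool, ran from -0.57 to 0.44 in the FACS pair, from -0.43 to 0.44 in the PE pair and from -0.48 to 0.47 in the CS pair.

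Within this narrow range both directions were present. In the FACS pair 38 members were higher in the earlier pool and 49 in the later one, at any size (47.2% and 52.8% of all genes). The PE pair had 45 and 42 (49.3% and 50.7% of all genes), and the CS pair 27 and 60 (44.5% and 55.5%). Without the myeloid-marker cells the splits were 43 to 44, 43 to 44 and 22 to 65. By 25% or more, 3 members were higher in FACS BFU-E against 8 in FACS CFU-E, below the shares of all genes (18.7% and 19.5%). Without the myeloid-marker cells these became 4 and 4: Ndufa4 and, in the other direction, Cox6b2, Ndufaf3, Ndufs1 and Uqcrfs1 were then under 25%, and Atp5g2 and Ndufa1 above it. PE-low and PE-high had 2 each (15.1% and 13.7% of all genes; 3 and 1 without those cells), and CS BFUE had 2 against 7 for CS CFUE (17.8% and 23.1%). The median log2 ratio of the members was -0.04, 0.01 and -0.13 in the FACS, PE and CS pairs, beside -0.02, -0.00 and -0.05 over all genes compared.

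Over the 3 pairs, which share no pool, 40 of the 87 members (46.0%) were higher in the later pool every time and 23 (26.4%) in the earlier pool every time, where all genes compared gave 39.7% and 33.5%. The 40 included 7 of the 9 complex III genes and 17 of the 37 complex I genes, and the 23 included none of complex III. Levels did not overlap, with all later pools above all earlier ones, for 10 members (16.8% of all genes): Atp5g1, Cox4i1, Ndufa10, Ndufaf1, Ndufaf4, Ndufb10, Ndufb9, Ndufc2, Ndufs7 and Uqcrfs1. The reverse held for 3 members (17.0% of all genes), Atp5g2, Cycs and Ndufb11. These counts include the myeloid-marker cells, and overlap was not counted without them. Ndufs7 was 398.8 CPM in the other cells of PE-low, above 392.9 in FACS CFU-E, which held no such cell. Ndufc2 was 406.5 CPM in the other cells of CS BFUE, above 405.1 in FACS CFU-E. Ndufa5 and Cox6b2 alone were higher by 25% or more in the later pool in every pair (10.8% of all genes), and no member was so in the earlier pool (11.4% of all genes).

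**Figure D2:**
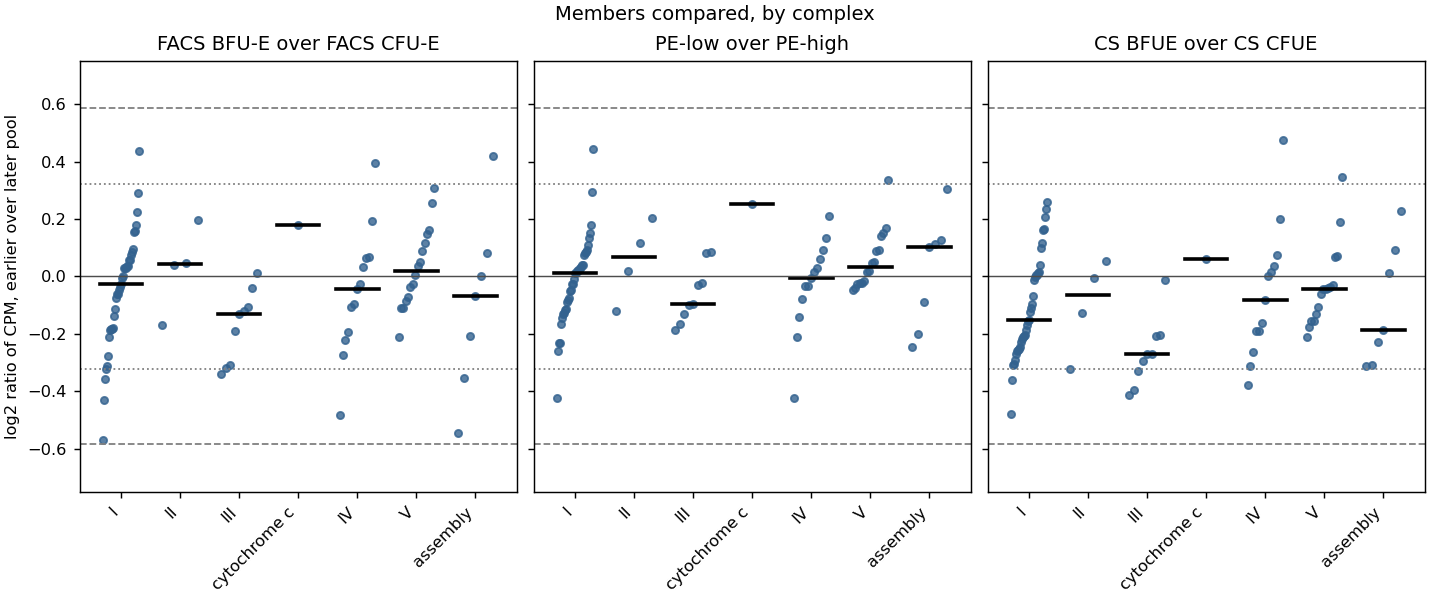
Log2 ratio of CPM, earlier over later pool, for each of the 87 members compared, by complex, with a panel per pair of pools. Black bars are medians, dotted lines mark a 25% difference and dashed lines 1.5-fold: all points lie between the dashed lines, and all but 1 of the complex III points in the FACS panel lie below 0.

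Complex I is the largest complex and the entry point for electrons from NADH. Its 37 genes split 16 to 21 (higher in the earlier to higher in the later pool) in the FACS pair, 19 to 18 in the PE pair and 12 to 25 in the CS pair. Without the myeloid-marker cells it was 17 to 20, 16 to 21 and 8 to 29. The most abundant of them were Ndufab1, the mitochondrial acyl carrier protein, Ndufb9 and Ndufb8, which belong to the membrane arm. Ndufb9 had 494 CPM in FACS BFU-E against 613 in FACS CFU-E, 542 in PE-low against 593 in PE-high, plus 454 in CS BFUE against 562 in CS CFUE. Each later pool was above every earlier pool. Ndufab1 was between 458 and 616 CPM, and Ndufb8 stayed between 445 and 471 CPM in all 6 pools.

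Ndufa5 had the largest ratio of complex I in the FACS and CS pairs, and in the PE pair Ndufv3 had a larger one. Ndufa5 is an accessory subunit of the arm that takes electrons from NADH (gene at chr6:24518662-24527690, GRCm38.p6) and had 183 CPM in FACS BFU-E against 272 in FACS CFU-E, 189 in PE-low against 254 in PE-high, plus 288 in CS BFUE against 402 in CS CFUE. Within each pair the later pool was higher, although CS BFUE was above both hashed later pools. The later-over-earlier ratio was 1.49 (1.38 to 1.60) in the FACS pair, 1.34 (1.26 to 1.43) in the PE pair and 1.40 (1.29 to 1.51) in the CS pair, with 95% exact binomial intervals in parentheses here and below. Ndufb10, a membrane arm subunit, had 349 CPM in FACS BFU-E against 471 in FACS CFU-E, 371 in PE-low against 436 in PE-high, plus 326 in CS BFUE against 418 in CS CFUE. Its ratio was 1.35 (1.28 to 1.42) in the FACS pair, 1.18 (1.12 to 1.23) in the PE pair and 1.28 (1.19 to 1.38) in the CS pair, and the groups did not overlap. Ndufs1, which carries iron-sulfur clusters near the NADH site, was higher in the later pool by 1.28-fold in the FACS pair, 1.20-fold in the PE pair and 1.17-fold in the CS pair, and Ndufb2, in the membrane arm, had log2 ratios (earlier over later) of -0.32, -0.23 and -0.29 in the same order.

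Other complex I genes were higher in the earlier pools. Ndufv3, an accessory subunit beside the NADH site, had 155 CPM in FACS BFU-E against 114 in FACS CFU-E, 155 in PE-low against 114 in PE-high, plus 232 in CS BFUE against 198 in CS CFUE. Its earlier-over-later ratio was 1.35 (1.23 to 1.49) in the FACS pair, 1.36 (1.252 to 1.48) in the PE pair and 1.18 (1.07 to 1.29) in the CS pair, so the hashed pools of a stage were alike and the CS pair was closer together. Ndufa1, in the membrane arm, was higher in the earlier pool by 1.22-fold in the FACS pair, 1.098-fold in the PE pair and 1.20-fold in the CS pair. For Ndufb11, also in the membrane arm, the levels were 266 CPM in FACS BFU-E against 238 in FACS CFU-E, 266 in PE-low against 239.8 in PE-high, plus 287 in CS BFUE against 257 in CS CFUE. The differences were small, 1.11-fold in the FACS pair, 1.11-fold in the PE pair and 1.12-fold in the CS pair, but all earlier pools were above all later ones; it was chosen after its values were seen. Ndufa3 was within counting error of equal in the PE and CS pairs.

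Complex II, succinate dehydrogenase, is the part of the chain that also works in the citric acid cycle, and all of its subunits are nuclear. Its 4 genes split 3 to 1, 3 to 1 and 1 to 3 in the FACS, PE and CS pairs (2 to 2 in the CS pair without the myeloid-marker cells). Sdha, the flavoprotein that oxidises succinate, had 172 CPM in FACS BFU-E against 149.7 in FACS CFU-E, 166 in PE-low against 153 in PE-high, plus 121 in CS BFUE against 116 in CS CFUE. It was slightly higher in the earlier pool each time, by 1.15 (1.05 to 1.248) in the FACS pair, 1.08 (1.005 to 1.17) in the PE pair and 1.04 (0.914 to 1.18) in the CS pair. Sdhb, the iron-sulfur subunit, lay between 162 and 219.5 CPM, and Sdhc, a membrane anchor, between 100.4 and 110.2 CPM. The other anchor, Sdhd, was the most abundant and went the other way, with 373 CPM in FACS BFU-E against 419.7 in FACS CFU-E, 391 in PE-low against 426 in PE-high, plus 245 in CS BFUE against 306 in CS CFUE. Its later-over-earlier ratio was 1.12 (1.06 to 1.19) in the FACS pair, 1.09 (1.04 to 1.14) in the PE pair and 1.252 (1.15 to 1.36) in the CS pair. Without the myeloid-marker cells the FACS and PE pairs were almost level for Sdhd (log2 -0.01 and -0.03, earlier over later), while the CS pair kept a log2 ratio of -0.23.

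Complex III, the cytochrome bc1 complex, was the complex whose genes were most often higher in the later pools. Of its 9 genes, 8, 7 and 9 were higher in the later pool in the FACS, PE and CS pairs, and their summed level was 1.13, 1.05 and 1.21 times that of the earlier pool. Without the myeloid-marker cells the counts were 7, 6 and 9. In the earlier pools these cells had less complex III RNA than the others, 0.289% against 0.344% of UMIs in FACS BFU-E, 0.301% against 0.350% in PE-low and 0.392% against 0.401% in CS BFUE. 

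Uqcrfs1, the Rieske iron-sulfur protein that takes electrons from quinol, had 237 CPM in FACS BFU-E against 301 in FACS CFU-E, 254 in PE-low against 285 in PE-high, plus 214 in CS BFUE against 258 in CS CFUE. No earlier pool reached a later one, and the ratio was 1.27 (1.19 to 1.35) in the FACS pair, 1.12 (1.06 to 1.19) in the PE pair and 1.21 (1.101 to 1.32) in the CS pair. Uqcr11, a small subunit, had 360.1 CPM in FACS BFU-E against 449 in FACS CFU-E, 389.7 in PE-low against 443 in PE-high, plus 765 in CS BFUE against 1018 in CS CFUE. The stage ratio was 1.247 (1.18 to 1.32) in the FACS pair, 1.14 (1.08 to 1.19) in the PE pair and 1.33 (1.27 to 1.40) in the CS pair, smaller than the gap between libraries. Without the myeloid-marker cells its log2 ratio, earlier over later, was -0.20, -0.12 and -0.37 in the FACS, PE and CS pairs, against -0.32, -0.19 and -0.41 with them. Uqcrq, another small subunit, was higher in the later pool by 1.24-fold in the FACS pair, 1.07-fold in the PE pair and 1.32-fold in the CS pair, and Cyc1, the cytochrome c1 that hands electrons to cytochrome c, by 1.14-fold in the FACS pair, 1.07-fold in the PE pair and 1.26-fold in the CS pair. Myeloid-marker cells held less Cyc1 than the other cells, 311 against 445.5 CPM in FACS BFU-E, 345 against 461.5 in PE-low and 264 against 290 in CS BFUE. The hinge protein gene Uqcrh was the most abundant in the hashed pools, between 607 and 666 CPM, and was higher in the later pool of every pair. Uqcr10 was higher in each later pool too, at 403, 404 and 757 CPM against 374, 396 and 628. Uqcrb, which binds quinone, was nearly level within pairs, at 367 CPM in FACS BFU-E against 363 in FACS CFU-E, 372 in PE-low against 352 in PE-high, plus 465 in CS BFUE against 469.5 in CS CFUE.

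Cycs, the mobile carrier between complexes III and IV and also a trigger of apoptosis once released, went the opposite way from complex III. It had 152 CPM in FACS BFU-E against 134 in FACS CFU-E, 159 in PE-low against 133 in PE-high, plus 139 in CS BFUE against 134 in CS CFUE. Every earlier pool was above every later pool, but the gap in the CS pair was within counting error: the earlier-over-later ratio was 1.13 (1.03 to 1.24) in the FACS pair, 1.19 (1.1 to 1.29) in the PE pair and 1.04 (0.927 to 1.17) in the CS pair.

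Complex IV, cytochrome c oxidase, reduces oxygen, and its nuclear subunits surround a core made from mitochondrial DNA. Of the 17 genes, 13 were compared, and they split 5 to 8, 6 to 7 and 6 to 7 (6 to 7, 6 to 7 and 4 to 9 without the myeloid-marker cells). The housekeeping subunits were abundant: Cox4i1 lay between 1062 and 1209 CPM, Cox8a between 1022 and 1607, and Cox7c between 780.1 and 1500. Cox7c was higher in the later pool of each pair, by 1.14-fold in the FACS pair, 1.16-fold in the PE pair and 1.20-fold in the CS pair, and Cox7a2 by 1.17-fold in the FACS pair, 1.102-fold in the PE pair and 1.24-fold in the CS pair. Cox5a, a subunit on the matrix side of the complex, was higher in the earlier pool by 1.14-fold in the FACS pair, 1.096-fold in the PE pair and 1.05-fold in the CS pair. Cox6a1 was higher in the later pool by 1.21-fold in the FACS pair, 1.06-fold in the PE pair and 1.14-fold in the CS pair, whereas Cox8a, Cox6c and Cox7b differed by less than 1.1-fold in every pair.

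Ndufa4 (gene at chr6:11900372-11907450) had the widest stage difference toward the earlier pools among the 13 complex IV genes compared. It had 763 CPM in FACS BFU-E against 579 in FACS CFU-E, 729 in PE-low against 630.5 in PE-high, plus 1175 in CS BFUE against 847 in CS CFUE. The earlier pool of each pair was higher, by 1.32 (1.26 to 1.37) in the FACS pair, 1.16 (1.11 to 1.20) in the PE pair and 1.39 (1.33 to 1.45) in the CS pair. Myeloid-marker cells held more of it than the other cells of the same pool, 993 against 676 CPM in FACS BFU-E, 892 against 684 in PE-low and 1721 against 1011 in CS BFUE. Without them the log2 ratio was 0.22, 0.16 and 0.26 in the FACS, PE and CS pairs, against 0.40, 0.21 and 0.47 with them. Its relative Ndufa4l2, known as a gene induced by low oxygen, was rare, with 9 UMIs in 6 cells of FACS BFU-E and 62 in 27 cells of FACS CFU-E, 35 in 15 of PE-low and 81 in 32 of PE-high, and 28 in 11 of CS BFUE and 325 in 81 of CS CFUE. The later-over-earlier ratio was 8.15 (4.03 to 18.7) in the FACS pair, 1.49 (0.991 to 2.28) in the PE pair and 4.71 (3.20 to 7.20) in the CS pair, so the interval of the PE pair reached below 1, and CS BFUE at 9.43 CPM was above PE-high at 7.36. No myeloid-marker cell held a UMI of it. Its share of the Ndufa4 plus Ndufa4l2 UMIs was 0.160% against 1.69% in the FACS pair and 0.796% against 4.99% in the CS pair. The annotated gene overlaps Shmt2, and whether the counting used strand was not given in the sources used here.

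Cox6b2, the testis form of the subunit that bridges the dimer of complex IV, was the tissue isoform present in most cells. UMIs of it were found in 184 of 233 FACS BFU-E cells and 159 of 167 FACS CFU-E cells. Levels were 83.3 CPM in FACS BFU-E against 116 in FACS CFU-E, 82.0 in PE-low against 110.2 in PE-high, plus 152 in CS BFUE against 197 in CS CFUE. The later-over-earlier ratio was 1.40 (1.253 to 1.56) in the FACS pair, 1.34 (1.22 to 1.49) in the PE pair and 1.30 (1.17 to 1.45) in the CS pair. Cox6b1, the form found in most tissues, was nearly level within each pair, with 524 CPM in FACS BFU-E against 540.4 in FACS CFU-E, 527 in PE-low against 529.5 in PE-high, plus 723 in CS BFUE against 765 in CS CFUE. Of the UMIs of both genes, Cox6b2 thus made up 13.7% (12.7 to 14.8) in FACS BFU-E and 17.7% (16.6 to 18.9) in FACS CFU-E, 13.5% and 17.2% in PE-low and PE-high, and 17.3% and 20.5% in CS BFUE and CS CFUE.

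The myeloid-marker cells touch this result. They had 29.9 CPM of Cox6b2 against 103 in the other cells of FACS BFU-E, 13.1 against 101 in PE-low and 42.3 against 184 in CS BFUE. Of the 87 members compared, Cox6b2 alone was at least 1.5-fold higher in the other cells in all 3 earlier pools (6.36% of all genes). None of the 87 was as far higher in the myeloid-marker cells in all 3 (3.72% of all genes). The rare Cox4i2, described next, was not among the members compared. Without those cells the log2 ratio, earlier over later, was -0.17, -0.18 and -0.09 in the FACS, PE and CS pairs, against -0.48, -0.43 and -0.38 with them.

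Cox4i2, the lung form of the Cox4 subunit, showed the reverse split. It had 69 UMIs in FACS BFU-E against 0 in FACS CFU-E, which allows up to 0.481 CPM there. PE-low had 64 against 10 for PE-high, and CS BFUE had 12 against 1 for CS CFUE. In FACS BFU-E 92.8% of these UMIs, and in PE-low 96.9%, came from myeloid-marker cells, which held 27.3% and 21.6% of the pools' UMIs; in CS BFUE the share was 58.3%. Its level was 31.8 CPM in those cells and 0.932 in the other cells of FACS BFU-E, and 40.5 and 0.360 in PE-low. Even so it made up only 0.827% of the Cox4 UMIs of FACS BFU-E. The gene overlaps Bcl2l1, so that reads of the latter may be counted in part. Cox6a2, the heart and muscle form, reached 59 UMIs in 15 cells of PE-low and at most 13 in the other named pools, and Cox7a1, also a heart and muscle form, at most 9.

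**Figure D3:**
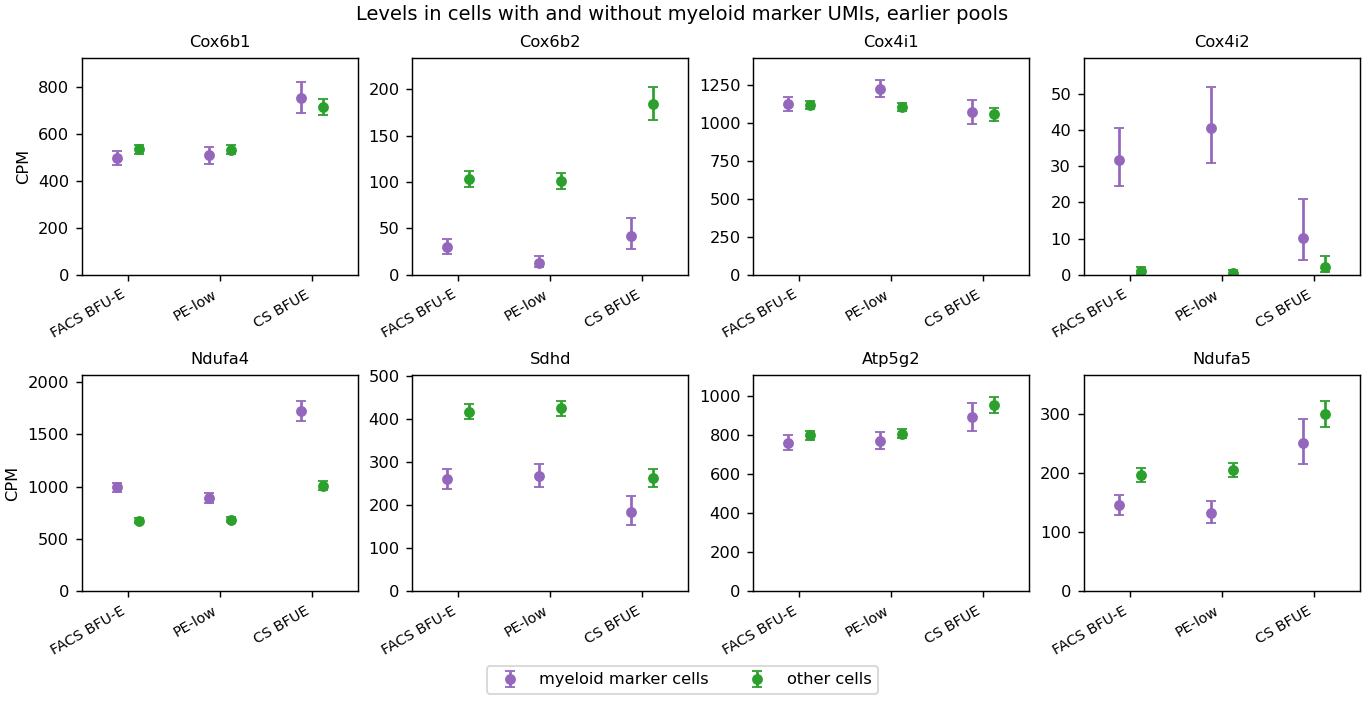
CPM of 8 genes in the earlier pools, with cells of each pool divided into those with at least 10 myeloid marker UMIs per 10000 (purple) and the others (green), and bars for 95% exact Poisson intervals (counting error only). Cox6b2 and Sdhd were lower and Cox4i2 and Ndufa4 higher in the myeloid-marker cells of all 3 pools, and the intervals of Atp5g2 overlapped.

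Cox7a2l, which helps join complexes III and IV into supercomplexes, is grouped by name with Cox7a1 and Cox7a2. It made up 43.1% of the UMIs of the group in FACS BFU-E against 38.9% in FACS CFU-E, 41.2% and 38.5% in PE-low and PE-high, and 28.9% and 22.2% in CS BFUE and CS CFUE. Its own level was near equal within the hashed pairs (303 and 296 CPM, 290.1 and 284 CPM), so there the share moved with Cox7a2. Cox7b and Cox8a were the only detected genes of their isoform groups.

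Complex V, the ATP synthase, joins a catalytic head to a rotor in the membrane. Of its 17 genes 16 were compared, and they split 9 to 7, 10 to 6 and 4 to 12 (10 to 6, 10 to 6 and 4 to 12 without the myeloid-marker cells). The CS split turned to 9 to 7 when pools were scaled by the median of ratios instead of their totals. Atp5b, the catalytic beta subunit, had 1403 CPM in FACS BFU-E against 1367 in FACS CFU-E, 1266 in PE-low against 1222 in PE-high, plus 887 in CS BFUE against 1002 in CS CFUE, and within pairs it differed by at most 1.13-fold. Atp5a1, the alpha subunit beside it, was higher in the earlier pool, by 1.19-fold in the FACS pair, 1.103-fold in the PE pair and 1.05-fold in the CS pair. Atp5d and Atp5j, of the stalks, were higher in the earlier pools of the hashed pairs (1.12 and 1.11 times for Atp5d, 1.11 and 1.12 for Atp5j). Atp5o, of the peripheral stalk, was higher in the later pool by 1.16-fold in the FACS pair, 1.02-fold in the PE pair and 1.11-fold in the CS pair. Atp5mpl, a small membrane subunit, was within 1.1-fold in every pair.

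The c subunit genes differed among themselves. Atp5g2 (gene at chr15:102662868-102671047) had 789 CPM in FACS BFU-E against 637 in FACS CFU-E, 801 in PE-low against 636 in PE-high, plus 941 in CS BFUE against 741 in CS CFUE. All earlier pools were above all later pools, and the earlier-over-later ratio was 1.24 (1.19 to 1.29) in the FACS pair, 1.26 (1.22 to 1.31) in the PE pair and 1.27 (1.21 to 1.33) in the CS pair. Atp5g1, the most abundant of the 3 (gene at chr11:96072793-96075694), had 1245 CPM in FACS BFU-E against 1342 in FACS CFU-E, 1283 in PE-low against 1326 in PE-high, plus 1151 in CS BFUE against 1331 in CS CFUE. It was higher in every later pool, by 1.08 (1.05 to 1.11) in the FACS pair, 1.03 (1.01 to 1.06) in the PE pair and 1.16 (1.11 to 1.20) in the CS pair, with no overlap. Atp5g3 was also higher in each later pool, by 1.08-fold in the FACS pair, 1.02-fold in the PE pair and 1.11-fold in the CS pair. With all cells counted, Atp5g2 thus stood apart from the other two, whose promoters are printed above beside its own, in direction. Myeloid-marker cells held less Atp5g1 than the other cells, 1036 against 1323 CPM in FACS BFU-E, 1099 against 1334 in PE-low and 997.5 against 1197 in CS BFUE. The other cells of FACS BFU-E and PE-low were thus close to FACS CFU-E, which held no myeloid-marker cell, in Atp5g1.

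Of the UMIs of the 3 genes, Atp5g2 gave 30.1% (29.4 to 30.7) in FACS BFU-E and 24.3% (23.7 to 24.99) in FACS CFU-E, 29.8% and 24.6% in PE-low and PE-high, and 37.2% and 28.9% in CS BFUE and CS CFUE. Atp5g1 gave 47.4% and 51.2%, 47.7% and 51.4%, and 45.5% and 51.9% in the same order. The c subunit total thus drew on the 3 genes in different proportions in earlier and later pools. Leaving out the myeloid-marker cells did not reduce the Atp5g2 difference: the log2 ratio was 0.33, 0.36 and 0.37, against 0.31, 0.33 and 0.34 with them. Near-identical processed copies exist for several of these small genes, and how the authors' counting treated reads that fit more than 1 place was not given in the sources used here.

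**Figure D4:**
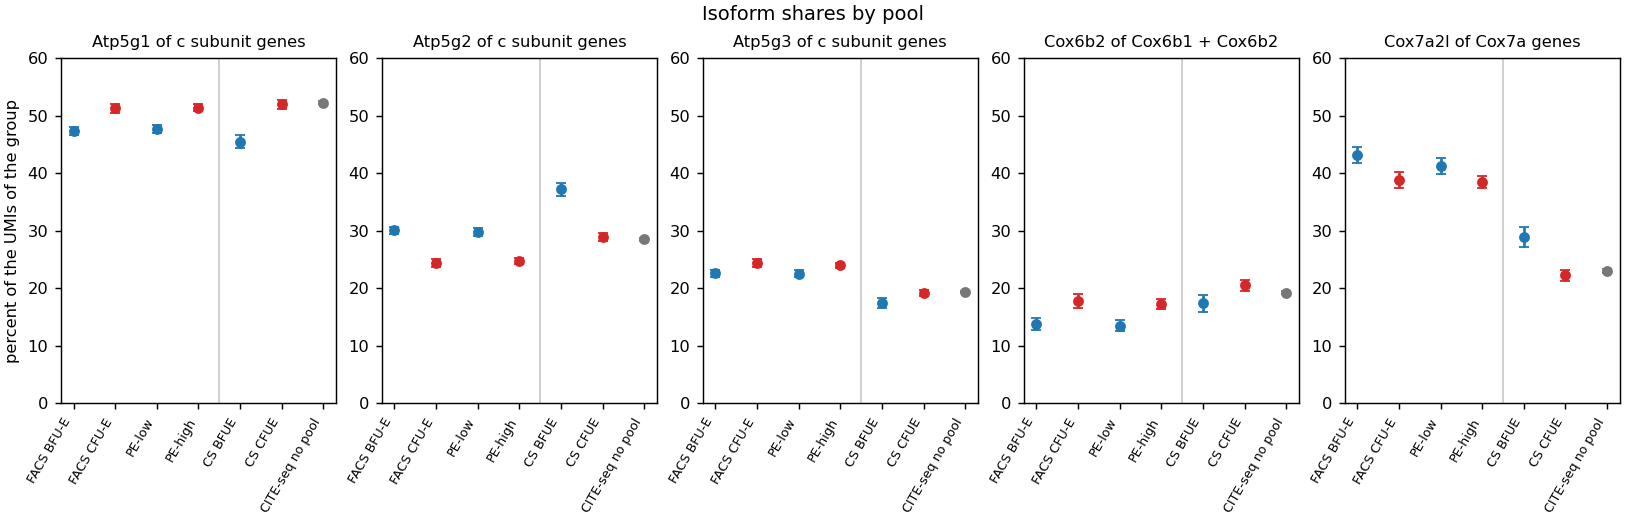
Percent of the UMIs of an isoform group that came from the named gene, by pool, with bars for 95% exact binomial intervals (counting error only), blue for earlier and red for later pools, and a line between the 2 libraries. The Atp5g2 share was higher in each earlier pool (30.1%, 29.8% and 37.2% against 24.3%, 24.6% and 28.9%), and the Cox6b2 share higher in each later pool.

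The 8 assembly factors, which help build complex I and then leave it, were rare beside the subunits, together between 0.0492% and 0.0533% of UMIs. Ndufaf1, part of the assembly platform of the membrane arm, had 38.6 CPM in FACS BFU-E against 56.5 in FACS CFU-E, 45.2 in PE-low against 51.9 in PE-high, plus 40.1 in CS BFUE against 49.7 in CS CFUE. All later pools were above all earlier ones, and the ratio was 1.46 (1.247 to 1.72) in the FACS pair, 1.15 (1 to 1.32) in the PE pair and 1.24 (1.01 to 1.54) in the CS pair. Ndufaf4 did not overlap either and was higher in the later pool by 1.16-fold in the FACS pair, 1.19-fold in the PE pair and 1.24-fold in the CS pair, and Ndufaf3, which works with it, by 1.28-fold in the FACS pair, 1.06-fold in the PE pair and 1.14-fold in the CS pair. Myeloid-marker cells held less Ndufaf4 than the other cells: 89.0 against 119 CPM in FACS BFU-E, 72.45 against 129 in PE-low and 96.25 against 110 in CS BFUE. For Ndufaf1, log2 ratios (earlier over later) were -0.55, -0.20 and -0.31 in the FACS, PE and CS pairs. Without those cells they were -0.41, -0.07 and -0.26. Ndufaf6 was higher in the earlier pool of each pair, by 1.34 (1.15 to 1.56) in the FACS pair, 1.23 (1.08 to 1.41) in the PE pair and 1.17 (0.9498 to 1.44) in the CS pair. Ndufaf2 and Ndufaf8 were within 1.1-fold in all pairs. Ndufaf7, a methyltransferase, differed by less than 1.2-fold in every pair.

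The isolation methods gave similar values at the same stage. Between PE-low and FACS BFU-E 0 of 87 members were past 1.5-fold (0.85% of all genes). Between PE-high and FACS CFU-E the counts were also 0 (2.24% of all genes past 1.5-fold). By 25% or more, 0 members were higher on either side (3.81% of all genes in PE-low, 2.0% in FACS BFU-E, 5.12% in PE-high and 1.48% in FACS CFU-E). Log2 ratios, PE over FACS, ran from -0.19 to 0.23 at the early and from -0.24 to 0.17 at the late stage, with medians of 0.02 and -0.02. At any size, 58 members were higher in PE-low and 29 in FACS BFU-E (57.0% and 43.0% of all genes), and 30 were higher in PE-high and 57 in FACS CFU-E (52.1% and 47.9%). The FACS and PE pools were run in 1 library.

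More members were past 1.5-fold between the CITE-seq and the hashed library than between stages, where none was. In CS BFUE 27 of the 87 members were at least 1.5-fold above FACS BFU-E (3.44% of all genes), and 4 were as far below (14.0% of all genes). In CS CFUE 25 were above FACS CFU-E (3.92% of all genes) and 0 below (7.41%). The same 25 were among the 27 of the early stage, and 2.68% of all genes were past 1.5-fold upward both times; 0 members were as far below at both stages (4.44% of all genes). Across the 87 members the log2 ratios at the 2 stages gave a Pearson r of 0.984 and a Spearman rho of 0.968, against 0.731 and 0.708 over 5408 genes; the points share their libraries and are not independent.

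The largest of these ratios was that of Ndufa3. This accessory subunit of complex I had 63.9 CPM in FACS BFU-E against 56.5 in FACS CFU-E, 58.6 in PE-low against 57.3 in PE-high, plus 193 in CS BFUE against 192 in CS CFUE, which is 3.03 and 3.40 times as much in the CITE-seq pool at the early and late stage. Ratios for Ndufb1-ps were 2.80 and 3.24, for Atp5k, a small membrane subunit of complex V, 2.90 and 3.18, and for Atp5mpl 2.81 and 2.77. Atp5e, the epsilon subunit of the head, had 2.53 and 2.40, and Uqcr11 2.12 and 2.27. By complex, the counts above 1.5-fold were 11 and 10 of 37 in complex I, 2 and 2 of 9 in complex III, 8 and 7 of 13 in complex IV and 5 and 5 of 16 in complex V. Complex II had none and was lower as a whole, at 0.729 and 0.792 times the hashed level. In the other direction, the hashed level of Atp5b was 1.58 and 1.36 times the CITE-seq level, of Sdhd 1.52 and 1.37 times, and of Ndufa9, in complex I, 1.501 and 1.30 times. Most genes lay on this side. Over all genes compared the median ratio, CITE-seq over hashed, was 0.835 and 0.856 at the early and late stage. In the same order, 4197 of 5410 and 4161 of 5408 genes were lower in the CITE-seq pool.

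Several things moved with the library. The antibody staining differed, the hepatocyte markers (6 genes) summed to 33.0 and 154 CPM in CS BFUE and CS CFUE against 2.57 to 4.07 in the hashed pools, and the median depth of CS BFUE was the lowest. Library, staining and sample cannot be told apart here, and the part of free hepatocyte RNA in these ratios was not tested. Stage ratios were therefore formed within a library only.

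**Figure D5:**
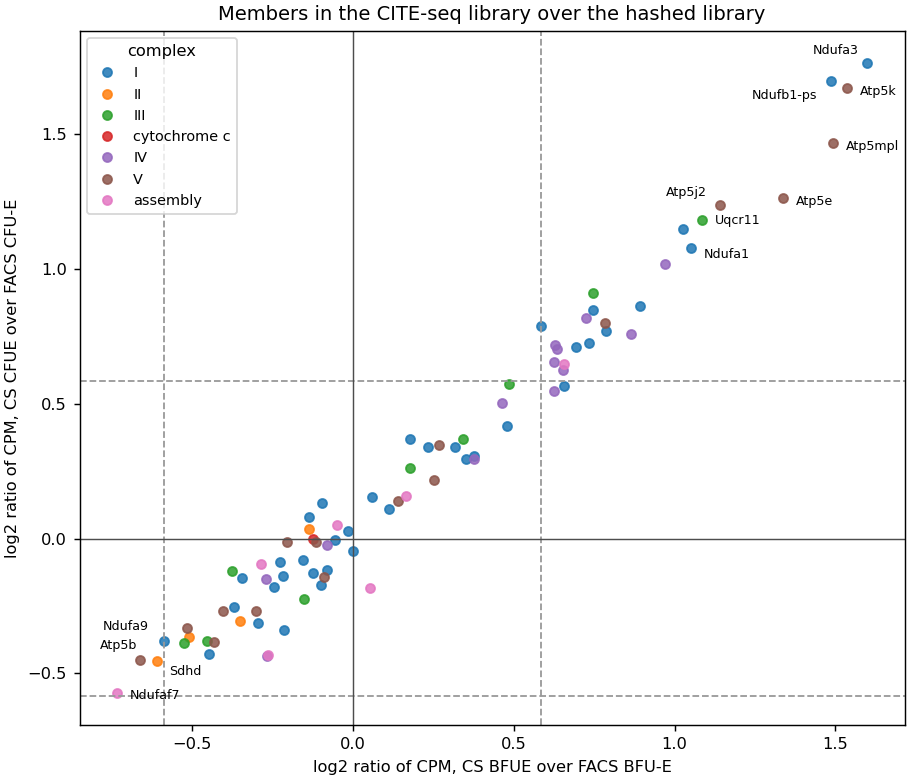
Log2 ratio of CPM, CITE-seq over hashed pool, for the 87 members at the early stage (x axis, CS BFUE over FACS BFU-E) and at the late stage (y axis, CS CFUE over FACS CFU-E), coloured by complex, with dashed lines at 1.5-fold. The points lie along 1 line: Ndufa3, Ndufb1-ps, Atp5k and Atp5mpl are at the upper right, and Ndufaf7, Atp5b, Sdhd and Ndufa9 at the lower left.

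Subunits encoded in mitochondrial DNA were the nearest relatives to compare with. Of the 13, 12 were compared, and 12, 12 and 10 were higher in the later pool in the FACS, PE and CS pairs. Together they took 2.93% and 3.59% of UMIs in the FACS pair, 2.98% and 3.67% in the PE pair, and 3.23% and 3.47% in the CS pair, which is 1.22, 1.23 and 1.07 times as much in the later pool. The nuclear members over the same pairs had 3.15% and 3.23%, 3.18% and 3.16%, and 3.67% and 3.91%. For the mitochondrially encoded genes, the highest share in a single cell was close in all groups. It ran from 5.41% in FACS BFU-E to 5.62% in the cells with no pool name. Whether cells above some share had been left out before deposit was not tested. The myeloid-marker cells of the earlier pools had more mitochondrially encoded RNA than the other cells, 3.28% against 2.80% in FACS BFU-E. The genes mt-Atp8 and mt-Nd4l overlap mt-Atp6 and mt-Nd4, so their counts are uncertain.

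Lists of other mitochondrial genes were compared in the same way. Of 38 further assembly factors, 2 were past 1.5-fold higher in the earlier and 2 in the later FACS pool (10.1% and 8.54% of all genes), none in the PE pair, and 3 in CS CFUE (10.2%). Cox11 and Cox19, which help deliver copper to complex IV, were higher in the later pool by 1.56-fold in the FACS pair, 1.24-fold in the PE pair and 1.56-fold in the CS pair and by 1.52-fold in the FACS pair, 1.29-fold in the PE pair and 1.53-fold in the CS pair. The copper chaperone Cox17, named after its values were seen, had 174 CPM in FACS BFU-E against 249 in FACS CFU-E, 182 in PE-low against 256 in PE-high, plus 388 in CS BFUE against 599.5 in CS CFUE. Atpaf1, a factor for the head of complex V, was higher in the earlier pool by 1.58-fold in the FACS pair, 1.37-fold in the PE pair and 1.37-fold in the CS pair. Of 17 genes of the citric acid cycle and its feeding enzymes, 12, 12 and 13 were higher in the later pool (52.8%, 50.7% and 55.5% of all genes). Past 1.5-fold was 1 of them, Cs (citrate synthase), higher in CS CFUE at 1.66 (10.2% of all genes). Dlst and Dlat, subunits of the oxoglutarate and pyruvate dehydrogenase complexes, were higher in the later pool by 1.41-fold in the FACS pair, 1.28-fold in the PE pair and 1.246-fold in the CS pair and by 1.37-fold in the FACS pair, 1.17-fold in the PE pair and 1.45-fold in the CS pair, and Fh1, fumarate hydratase, was higher in the earlier pool by 1.33-fold in the FACS pair, 1.37-fold in the PE pair and 1.05-fold in the CS pair.

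Among 14 carriers and genes of mitochondrial shape, the same 2 were past 1.5-fold in the FACS, PE and CS pairs. Of all genes, 18.6%, 13.1% and 19.6% were past 1.5-fold either way in these pairs, and the share past it in all of them was not computed. Slc25a4, an ADP/ATP carrier that supplies complex V with ADP, had 616 CPM in FACS BFU-E against 351 in FACS CFU-E, 631 in PE-low against 406 in PE-high, plus 314 in CS BFUE against 194 in CS CFUE. It was higher in each earlier pool by 1.75 (1.67 to 1.85) in the FACS pair, 1.55 (1.49 to 1.62) in the PE pair and 1.62 (1.49 to 1.76) in the CS pair. Slc25a5, the other carrier of this kind that was abundant, was within 1.1-fold (1324 and 1216 CPM in the FACS pair). Mfn1, a fusion protein of the outer membrane, had 17.6 CPM in FACS BFU-E against 27.6 in FACS CFU-E, 19.5 in PE-low against 32.0 in PE-high, plus 13.8 in CS BFUE against 27.7 in CS CFUE, higher in the later pool by 1.57-fold in the FACS pair, 1.64-fold in the PE pair and 2.01-fold in the CS pair. Regulators of mitochondrial genes differed little: of 10 compared, 4 to 6, 3 to 7 and 4 to 6 was the split, Nrf1 lay between 33.0 and 50.7 CPM, and Ppargc1a had no UMI in 4 of the 6 named pools.

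The cells with no pool name offered a further view of the same order, since the deposited first principal component ran from globin-rich to early cells. In 4 equal groups of these cells from the lowest to the highest value, globins summed to 11660, 1637, 348 and 304 CPM and early erythroid markers to 54.3, 153, 290 and 632; the highest group also held 509 CPM of granulocyte, 808 of monocyte and 540.3 of hepatocyte markers, and the other groups at most 5.80, 4.62 and 35.8. The authors name the component as corrected, and which genes entered it was not established here. Members may have been among them, so the values only describe. Atp5g2 was 561, 679, 755 and 836 CPM along these groups, Atp5g1 1186, 1311, 1394 and 1300, and Atp5g3 471 to 485. Cycs was 111, 131, 142 and 149 CPM, and Ndufa5 427, 430, 411 and 345. All members together were 39890, 39800, 39690 and 38550 CPM, whereas the mitochondrially encoded subunits were 42090, 38370, 32830 and 31260. The early end thus had more Atp5g2 and Cycs and less Ndufa5, as the named earlier pools did within each pair. Other members did not follow the named pairs. Atp5g1 (1186 CPM in the lowest and 1300 in the highest group), Ndufaf4 (89.4 and 129) and Sdhd (264 and 295) were higher at the early end, but lower in the named earlier pools. The part of the other cell types in these values was not tested. Ndufa5 was lower in myeloid-marker cells than in the other cells of each named earlier pool, 145 against 197 CPM in FACS BFU-E, 133 against 204 in PE-low and 251 against 299 in CS BFUE, and without them the stage log2 ratio was -0.46, -0.33 and -0.43 in the FACS, PE and CS pairs.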

How the data were processed

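Members were chosen by symbol, and the members, gene lists and comparisons were chosen with earlier results of these data known. The labels name a 10x 3' version 3 kit. Cell Ranger 4.0.0, Scanpy and build mm10 are named per the submitters' processing notes. The authors deposited natural log values of 1 plus the count per 10000 for 3357 cells and 17608 genes, each cell's pool name, and principal component scores, of which the first was used; 1 column of the cell table was not used. UMIs were recovered by dividing a cell's linear values by its smallest nonzero value: 16419767 of 16419767 nonzero values came out whole within 0.02. No barcode was shared by the libraries, 2 hashed cells had no pool name and entered no comparison, and no doublet caller was run, and none is stated in the sources used here.

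UMIs were summed per pool (Python 3.11.15, NumPy 2.4.6, SciPy 1.17.1, pandas 2.3.3) and given as CPM. Comparisons used genes with a mean of at least 20 CPM over the 6 named pools, so that entry does not rest on 1 side of a pair. A fold of 1.5 and a difference of 25% are fixed sizes and not tests, and no p-value was computed. Exact 95% intervals cover counting error only, and a count of 0 was read as up to 3 UMIs. The interval and ratio code was tested on simulated data. Named genes are, per complex, the 3 most abundant and up to 4 with the largest FACS ratio each way, all detected isoforms, complex II, Cycs and Cyc1, and 3 per further list; genes of the comparison between libraries and those without overlap were named after their values were seen. Not every gene under this rule is reported here. Gene positions and promoters are from RefSeq (GRCm38.p6, the assembly that mm10 denotes); 3 members had no position and 29 overlap another gene. Alternatives were another scaling, a mean over cells, 2 other filters, and leaving out myeloid-marker, globin-rich or the most deeply sequenced cells. The comparison between libraries and the 200 CPM level were added after seeing the data.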

Additional observations from a re-analysis of the deposited data

How the results depend on the processing

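The direction of each median log2 ratio of the members was kept under the 7 alternatives, with 2 exceptions, both near 0: for PE-low over FACS BFU-E it was -0.0065 with median-of-ratios scaling, against 0.02, and for PE-low over PE-high it was -0.0005 without myeloid-marker cells, against 0.0124. For PE-high over FACS CFU-E it was -0.0352 without the cells with the most UMIs, against -0.0177. Counts by direction moved with the scaling too. With median-of-ratios scaling the members split 43 to 44 (earlier to later) in the FACS pair and 36 to 51 in the CS pair, against 38 to 49 and 27 to 60. The PE split stayed at 45 to 42. Complex I split 19 to 18 in the FACS pair under that scaling, against 16 to 21. The count of members past 1.5-fold in the FACS pair was 1 with a mean over cells, 2 with no filter on low values and 2 without the cells with the most UMIs. With no filter it was also 3 in the PE pair, 3 in the CS pair and 4 between PE-low and FACS BFU-E, where rare genes enter. In the filtered FACS pair these were Ndufa5, at -0.62 (mean over cells) and -0.60 (without the cells with the most UMIs), and Cox6b2, at -0.61 (without those cells), all as log2 ratios. The members' share of UMIs was 3.20% in FACS BFU-E and 3.19% in PE-low without myeloid-marker cells, and 3.14% and 3.25% in FACS BFU-E and FACS CFU-E without the cells with the most UMIs. The causes were not tested. Leaving out globin-rich cells or asking for 50 CPM in a pool of the pair changed no direction of these medians and no count past 1.5-fold. No paired analysis was possible because every pool is 1 sample and the labels give no replicate numbers; for the same reason no replicate could be left out.

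With 1 sample per pool, differences between embryos, days and library preparations are not measured. Depth limits the rare isoforms: 3 UMIs correspond to 0.273 CPM in PE-high and to 1.01 CPM in CS BFUE.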

Other observations

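Ndufaf5 and Atp5s, an assembly factor and a gene named for a coupling factor of complex V, were under the 20 CPM average and entered no comparison. Ndufaf5 had 21.0 CPM in FACS BFU-E against 15.2 in FACS CFU-E, 20.3 in PE-low against 14.7 in PE-high, plus 9.77 in CS BFUE against 9.02 in CS CFUE, with every hashed earlier pool above the hashed later ones. Atp5s had 10.98 CPM in FACS BFU-E against 15.6 in FACS CFU-E, 17.1 in PE-low against 13.5 in PE-high, plus 17.2 in CS BFUE against 13.0 in CS CFUE, with no order by stage.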
